A study of Mus musculus with 8 samples.

Results

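Border-associated macrophages live around blood vessels, in the meninges and in the choroid plexus. They are long-lived and take up material from the fluid spaces they line. They are told apart from microglia, the macrophages of the brain parenchyma, by a set of marker genes, among them genes of surface scavenger receptors. The 8 genes described here belong to that set and were given by name. They are Mrc1, Lyve1, Stab1, Cd163, Ms4a7, Pf4, F13a1 and Cbr2, 8 of the 20692 genes in the files. RNA of all 8 genes together stood at 36.5 to 593 TPM in PkcdRed libraries, against 0.111 to 3.88 TPM in SstRed libraries (TPM, a transcript level scaled to length and to the library's total). Pf4 and Stab1 carried most of it, and both lay higher in each of the 4 PkcdRed libraries than in any of the 4 SstRed libraries. The other 6 genes were each unread in at least 1 PkcdRed library or overlapped between the populations.

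The study compared unchallenged cells of the central amygdala marked by the reporter td-Tomato in male mice. PkcdRed mice carried PKC delta-type::Cre together with Rosa::loxP-STOP-loxP-td-Tomato and were 9 weeks (replicates 1 and 2) or 18 weeks old (replicates 3 and 4). SstRed mice carried SST::Cre together with the same reporter and were 8 weeks (replicates 1 and 2) or 20 weeks old (replicates 3 and 4). Both groups therefore share the reporter allele, and each library came from 1 mouse, from about 1000 cells that were freed with papain and sorted for red fluorescence. The reporter stays on in any cell that has once expressed Cre, so it marks a history and not a present state. P-values measure the spread between these mice together with that of sorting and amplification. The mice of 8 or 9 weeks are called younger and those of 18 or 20 weeks older. Age class ran together with depth, with 10316149 to 18242496 estimated counts in libraries of younger mice and 964361 to 2522749 in those of older mice, so the 2 cannot be told apart.

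Markers were checked before the genes were read. Prkcd stood at 106 to 226 TPM in PkcdRed libraries and 0 to 30.2 TPM in SstRed libraries. Sst stood at 0.209 to 13.7 TPM in 3 PkcdRed libraries and 116 to 296 TPM in SstRed libraries, while PkcdRed replicate 2 held 223 TPM of it, inside the SstRed range. That library also had the lowest astrocyte marker sum of the 8, 285 TPM, and the lowest mural cell marker sum, 103 TPM. The labels speak of neurons, yet the sum of the 7 neuronal markers measured was 103 to 500 TPM in PkcdRed and 116 to 482 TPM in SstRed libraries, under that of the 6 oligodendrocyte markers, 11469 to 28273 and 8994 to 57039 TPM. The 12 microglial markers summed to 11169 to 25175 TPM in PkcdRed libraries, against 1043 to 3269 TPM in SstRed libraries. PkcdRed replicate 2 is the highest library for 5 of the 8 border macrophage genes (Mrc1, Stab1, Ms4a7, Pf4 and Cbr2), where it is highest for 15.6% of all genes with a count, so values are given with and without it.

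**Figure D1:**
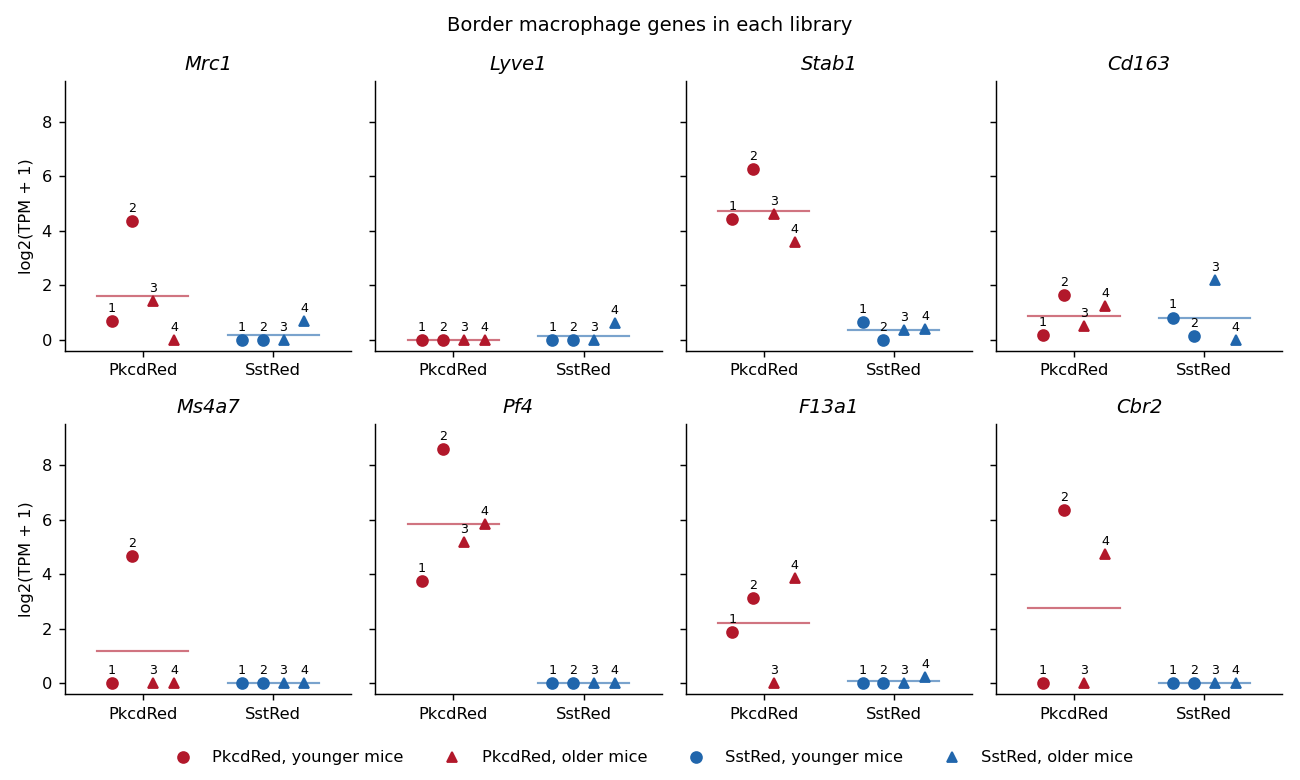
Level of each gene as log2(TPM + 1) in each library (vertical axis), PkcdRed left and SstRed right; numbers are replicates, circles younger and triangles older mice, lines the group means of log2(TPM + 1). Stab1 and Pf4 separate the 4 PkcdRed from the 4 SstRed libraries, and PkcdRed replicate 2 is the highest point of 5 genes.

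The surface receptors and the membrane protein Ms4a7 come first. Stab1 (chromosome 14, 31139017 to 31168651, GRCm38.p6) encodes stabilin 1, a scavenger receptor that takes up modified lipoproteins and other ligands. The bases before a start at base 31168641 are shown because Stab1 was the gene with the steadiest difference. The gene span above reaches base 31168651, so the last bases of the window lie inside it. The window is chr14:31168642-31168891 (GRCm38.p6, minus strand, RefSeq), read 5′ to 3′, with capitals on 2 short motifs described further on.
Stab1: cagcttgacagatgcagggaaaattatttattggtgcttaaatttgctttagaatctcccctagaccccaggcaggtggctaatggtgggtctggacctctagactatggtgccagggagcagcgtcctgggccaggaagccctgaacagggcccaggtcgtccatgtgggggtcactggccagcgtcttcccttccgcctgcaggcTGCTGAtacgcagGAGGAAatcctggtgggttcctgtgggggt
Stab1 read 20.7, 76.0, 23.3 and 11.0 TPM in PkcdRed replicates 1 to 4, against 0.582, 0, 0.271 and 0.322 TPM in SstRed replicates 1 to 4. All PkcdRed libraries were high and the groups did not overlap. The estimated counts were 1931, 4402, 105 and 78 in PkcdRed, against 51, 0, 2 and 4 in SstRed libraries. Mean levels were 32.7 ± 29.3 TPM in PkcdRed and 0.294 ± 0.238 TPM in SstRed libraries (SD, n = 4 each), a ratio of 111. Without PkcdRed replicate 2 the PkcdRed mean was 18.3 ± 6.49 TPM (SD, n = 3).

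In edgeR's quasi-likelihood test over 11328 genes, Stab1 had a log2 fold change of 6.54 ± 1.33 (SE; PkcdRed over SstRed, all folds below run the same way) and an adjusted p of 0.0966, which misses the threshold of 0.05. That test called 0.282% of all genes higher in PkcdRed libraries, and 0 of the 4 border macrophage genes that passed its expression filter (Mrc1, Stab1, Cd163 and Pf4), while 2 of these had an unadjusted p under 0.05, as did 6.67% of all genes. Stab1 passed with no filter (adjusted p = 1.04e-07, where edgeR called 1.29% of genes higher), with DESeq2 (7.05e-07, 3.2% of genes called higher) and with limma on log2(TPM + 1) (0.0463, 1.21% called higher). It also passed in edgeR with the filter without SstRed replicate 2, the library with no Stab1 count (adjusted p = 0.0344, 0.209% called higher). With any other library left out it missed there (adjusted p of 0.141 to 0.315). Stab1 also missed with limma on log2(TPM + 0.1) (adjusted p = 0.0879). In edgeR it missed with RLE or upper quartile scaling, 10 CPM in 4 libraries, no age term or a replicate block (0.0898 to 0.196). Without PkcdRed replicate 2 it passed with no filter (adjusted p = 0.00243, 1.28% called higher) and missed with the filter (0.315). In edgeR the log2 fold change was 7.04 ± 2.17 (SE) in the younger mice alone and 5.81 ± 1.33 (SE) in the older mice alone, with adjusted p of 0.780 and 0.391, so both age classes gave the same direction and neither passed. Over 29 fits the adjusted p of Stab1 ran between 1.04e-07 and 0.780 and the log2 fold change between 4.37 and 7.66. All these fits reuse the same mice, so the passes among them are not independent support. With no filter the log2 fold change was 6.54, as with the filter. Those 2 fits therefore differed in their p and not in the size of the fold, and the reason was not tested.

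Mrc1 (chromosome 2, 14229414 to 14332023), the mannose receptor CD206, takes up glycoproteins that end in mannose and is commonly used to stain border macrophages. It read 0.619, 19.5, 1.69 and 0 TPM in PkcdRed replicates 1 to 4, against 0, 0, 0 and 0.612 TPM in SstRed replicates 1 to 4. The counts were 38, 743, 5 and 0 in PkcdRed, against 0, 0, 0 and 5 in SstRed libraries. PkcdRed replicate 2 alone was high, with 93.9% of all Mrc1 counts, and the groups overlapped. Mrc1 averaged 5.46 ± 9.41 TPM in PkcdRed and 0.153 ± 0.306 TPM in SstRed libraries (SD, n = 4 each), and 0.770 ± 0.855 TPM (SD, n = 3) in PkcdRed libraries without replicate 2. Its log2 fold change in edgeR was 5.80 ± 3.86 (SE; adjusted p = 0.867), and it passed in none of 23 fits, where the lowest adjusted p was 0.128.

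Cd163 (chromosome 6, 124304636 to 124330529), the receptor that clears complexes of haemoglobin and haptoglobin, gave neither a call nor a steady direction. It read 0.121, 2.11, 0.411 and 1.34 TPM in PkcdRed replicates 1 to 4, against 0.764, 0.111, 3.61 and 0 TPM in SstRed replicates 1 to 4. The highest library was SstRed replicate 3 and the groups overlapped throughout. The log2 fold change in edgeR was 0.19 ± 1.73 (SE; adjusted p = 0.992). It was -0.14 without SstRed replicate 4 and, with no filter, -1.34 without PkcdRed replicate 2, so no direction can be given.

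Lyve1 (chromosome 7, 110850607 to 110862953), a hyaluronan receptor of border macrophages and of lymphatic endothelium, was all but unread. It was at 0 TPM in all 4 PkcdRed libraries and in 3 SstRed libraries, and SstRed replicate 4 held 2 counts, 0.521 TPM. Reading no count as up to 3 counts gives Lyve1 a limit of 0.104 to 2.16 TPM in PkcdRed libraries and 0.111 to 1.32 TPM in SstRed libraries. Such limits stand for counting error alone, because reads copied in amplification do not stand for separate molecules. Of 6 lymphatic endothelial markers 1, Ccl21a, which encodes a chemokine, was at 0 in all 8 libraries. The 6 summed to 3.61 to 31.8 TPM in PkcdRed and 11.2 to 171 TPM in SstRed libraries. Pdpn averaged 7.79 ± 7.09 TPM in PkcdRed and 30.1 ± 14.8 TPM in SstRed libraries (SD). Prox1 reached 126 TPM in SstRed replicate 2 and Mmrn1 22.6 TPM in PkcdRed replicate 3.

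Ms4a7 (chromosome 19, 11321039 to 11336146), a membrane protein of the Ms4a family found in macrophages, was read in 1 library. PkcdRed replicate 2 held 208 counts, 24.6 TPM, all on 1 of the 3 listed transcripts. The other 3 PkcdRed libraries and all 4 SstRed libraries held 0 counts. On the longest transcript those zeros allow 0.182 to 3.77 TPM in PkcdRed and 0.194 to 2.30 TPM in SstRed libraries, all under the level of PkcdRed replicate 2.

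The chemokine Pf4, the coagulation factor subunit F13a1 and the enzyme Cbr2 follow. Pf4 (chromosome 5, 90772435 to 90773383) encodes platelet factor 4, a chemokine of platelets that border macrophages also make. The window before its start is shown as that of the other gene with no overlap between the groups, chr5:90772185-90772434 (GRCm38.p6, plus strand, RefSeq), with capitals on a motif.
Pf4: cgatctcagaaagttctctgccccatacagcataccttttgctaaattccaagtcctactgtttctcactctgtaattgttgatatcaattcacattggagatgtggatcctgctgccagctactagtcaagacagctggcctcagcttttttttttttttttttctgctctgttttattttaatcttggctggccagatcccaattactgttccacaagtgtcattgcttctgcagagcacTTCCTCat
Pf4 read 12.4, 382, 35.6 and 56.4 TPM in PkcdRed replicates 1 to 4, against 0 TPM in each of the 4 SstRed libraries. The counts were 58, 1105, 8 and 20 in PkcdRed libraries, against none in SstRed libraries. All PkcdRed libraries were high and the groups did not overlap. A count of 0 allows 0.685 to 8.15 TPM of Pf4 in SstRed libraries, under the lowest PkcdRed value. A floor of 3 counts in each SstRed library was a mean of 3.63 TPM. The PkcdRed mean of Pf4 was 33.5-fold that floor, and 9.59-fold without PkcdRed replicate 2, which held 92.8% of the counts. The floor bounds the SstRed side alone and leaves out the spread of PkcdRed libraries. Pf4 averaged 122 ± 175 TPM in PkcdRed libraries (SD, n = 4), and 34.8 ± 22.0 TPM without replicate 2 (SD, n = 3).

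The edgeR test gave Pf4 a log2 fold change of 11.51 ± 2.71 (SE; adjusted p = 0.240), a fitted value that depends on the prior count because SstRed libraries are at 0. Pf4 passed with no filter (adjusted p = 0.00597), with DESeq2 (2.76e-05), with limma on log2(TPM + 1) (0.0234) and with limma on log2(TPM + 0.1) (0.0254, 0.583% of genes called higher). Without PkcdRed replicate 2 the edgeR fit with no filter no longer called it (adjusted p = 0.373). Over 27 fits the adjusted p of Pf4 ran between 1.68e-05 and 0.780. Across the 8 genes, Pf4 and Stab1 were the 2 whose groups did not overlap with PkcdRed on top, where 2.73% of all genes with a count had all 4 PkcdRed above all 4 SstRed libraries.

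Pf4 is also a platelet gene, so platelet and megakaryocyte markers stand beside it. Their 9 genes summed to 76.0, 9.29, 30.5 and 72.1 TPM in PkcdRed replicates 1 to 4, against 10.4, 2.62, 3.86 and 30.7 TPM in SstRed replicates 1 to 4. PkcdRed replicate 2, the library with the most Pf4, had the lowest such sum of its group. Genes of the list at 0 in it included Ppbp, Gp9, Gp1ba, Gp6, Treml1 and Clec1b, while Itgb3, an integrin chain of platelets and other cells, was higher there than in any other library (8.37 TPM, against 0 to 2.75 TPM in the other 7) and Itga2b, its platelet partner chain, read 0.914 TPM (all named after their values were seen). Of the 9 markers 2 passed the edgeR filter, 0 were called by edgeR or DESeq2 and 0 had an unadjusted p under 0.05. Over all genes edgeR called 0.282% higher, DESeq2 called 3.2% higher, and 6.67% had an unadjusted p under 0.05 in edgeR. With 2 genes tested, these counts cannot show whether platelet genes differ. The part of platelets in the level of Pf4 was not tested.

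F13a1 (chromosome 13, 36867178 to 37050244) encodes the A subunit of coagulation factor XIII, a transglutaminase that crosslinks fibrin and matrix. It read 2.70, 7.66, 0 and 13.5 TPM in PkcdRed replicates 1 to 4, against 0, 0, 0 and 0.172 TPM in SstRed replicates 1 to 4. The counts were 119, 208, 0 and 45 in PkcdRed libraries, against 0, 0, 0 and 1 in SstRed libraries. PkcdRed replicates 1, 2 and 4 were high and replicate 3, the shallowest library, was at 0, so the groups overlapped. F13a1 did not pass the expression filter. With no filter edgeR gave a log2 fold change of 7.77 ± 3.01 (SE; adjusted p = 0.276), and DESeq2 with no filter gave 8.21 ± 2.03 (SE; adjusted p = 0.00310, 3.55% of genes with an adjusted p called higher). The pooled ratio of counts, PkcdRed over SstRed, was 412 with a 95% interval of 73.4 to 16301 for counting error, and 272 without PkcdRed replicate 2.

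The files list 2 transcripts of F13a1 that differ in their first exon and share the exons up to the last. The first starts at base 37050244 with an exon of 50 bases, and the other starts 1031 bases downstream at base 37049213 with an exon of 73 bases. PkcdRed replicates 2 and 4 had 208 and 44.9 estimated counts on the transcript with the upstream first exon, and PkcdRed replicate 1 had 119 on that with the downstream one. Each library thus placed at least 99.8% of its F13a1 counts on 1 transcript, and the younger PkcdRed mice were split between the 2. The authors' tool divides reads of shared exons by the reads that differ, and the number of reads in the first exons themselves is not known from the files. The bases before both starts are shown because the split sets them apart. The window of the upstream start is chr13:37050245-37050494, and that of the downstream start is chr13:37049289-37049463, cut short where GENCODE extends the exon (GRCm38.p6, minus strand, RefSeq).
F13a1 upstream start: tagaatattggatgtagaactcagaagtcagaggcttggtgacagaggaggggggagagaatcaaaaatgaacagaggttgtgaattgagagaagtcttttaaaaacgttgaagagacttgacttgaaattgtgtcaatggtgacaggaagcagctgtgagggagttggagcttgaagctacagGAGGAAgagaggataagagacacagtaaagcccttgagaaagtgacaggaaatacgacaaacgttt
F13a1 downstream start: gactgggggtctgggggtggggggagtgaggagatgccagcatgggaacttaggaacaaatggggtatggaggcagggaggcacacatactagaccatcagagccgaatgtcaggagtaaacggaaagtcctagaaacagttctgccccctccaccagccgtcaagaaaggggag

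**Figure D2:**
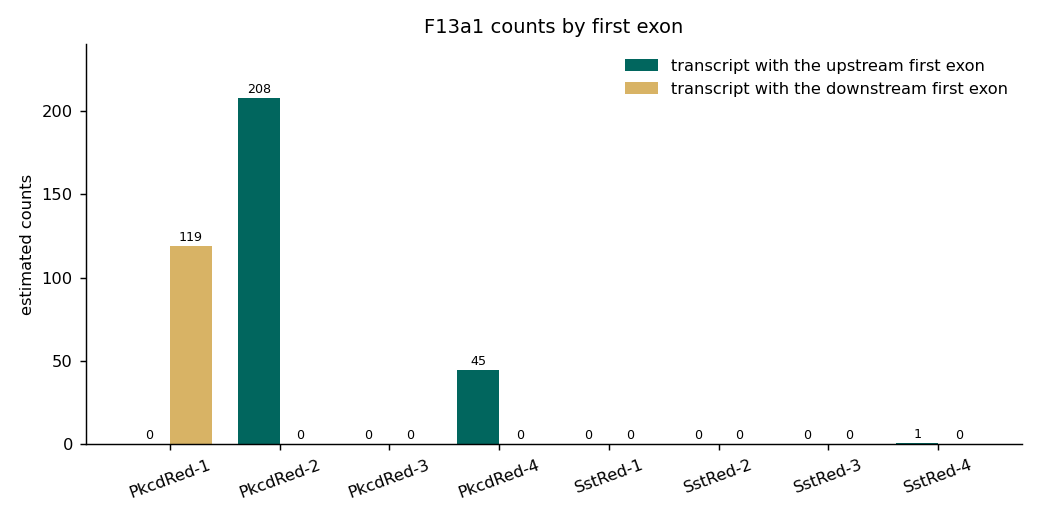
Estimated counts of the 2 F13a1 transcripts (vertical axis) in the 4 PkcdRed libraries and then the 4 SstRed libraries. Estimated counts fall on the transcript with the upstream first exon in PkcdRed replicates 2 and 4. In PkcdRed replicate 1 they fall on the transcript with the downstream one. They are counts of whole transcripts and not of reads in the first exons.

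Cbr2 (chromosome 11, 120729485 to 120732025) encodes carbonyl reductase 2, an enzyme that reduces carbonyl groups and is known from mouse lung. It read 0, 81.0, 0 and 25.3 TPM in PkcdRed replicates 1 to 4, with 495 and 19 counts in replicates 2 and 4, against 0 TPM in each of the 4 SstRed libraries. The groups overlapped because 2 PkcdRed libraries were at 0. The deep PkcdRed replicate 1 allows up to 0.304 TPM of Cbr2, while the shallow PkcdRed replicate 3 allows 6.31 TPM. A floor of 3 counts in each SstRed library was a mean of 1.72 TPM. The PkcdRed mean of Cbr2, 26.6 ± 38.2 TPM (SD), was 15.5-fold that floor. Without PkcdRed replicate 2 it was 4.92-fold (8.45 ± 14.6 TPM), which rests on the 19 counts of replicate 4. The floor bounds the SstRed side alone and leaves out the spread of PkcdRed libraries. It did not pass the expression filter, and edgeR with no filter did not call it (adjusted p = 0.105).

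**Figure D3:**
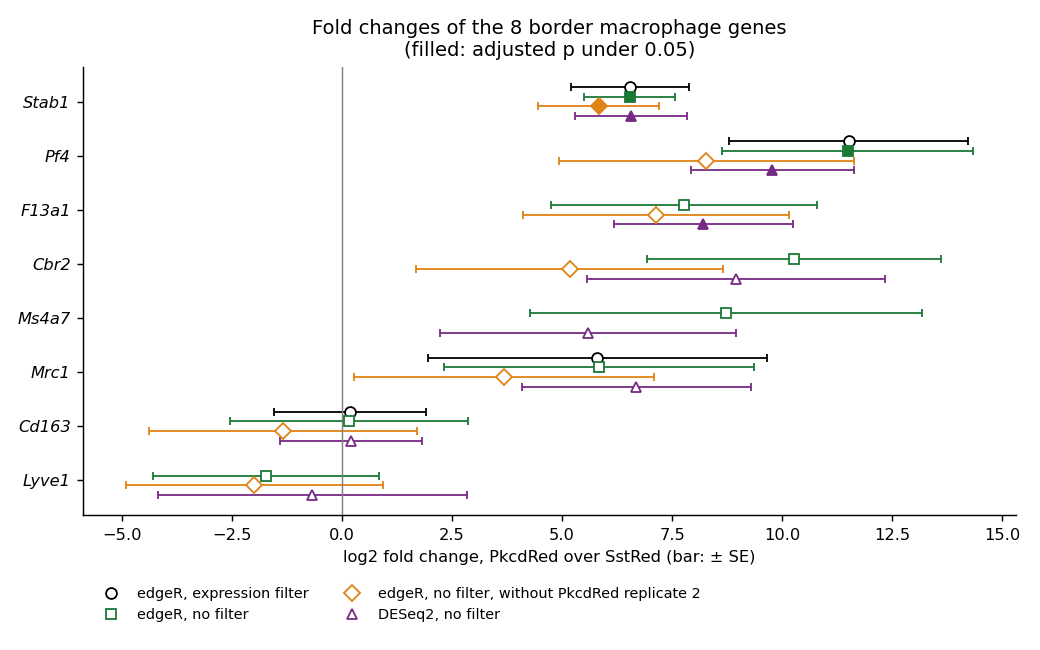
Log2 fold change of PkcdRed over SstRed with its SE (horizontal axis) for each gene in 4 fits; filled points have an adjusted p under 0.05. Stab1 is called in 3 of the 4, including the fit without PkcdRed replicate 2, which uses no filter, and Pf4 is not called without that library.

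By mean level, the order in PkcdRed libraries was Pf4, Stab1 (32.7 TPM), Cbr2 (26.6 TPM), Ms4a7 (6.15 TPM), F13a1 (5.96 TPM), Mrc1 (5.46 TPM), Cd163 (0.996 TPM) and Lyve1 (0 TPM). No neighbours in that order down to Cd163 differed by more than the SD of the higher one. Without PkcdRed replicate 2 the order was Pf4, Stab1, Cbr2 (8.45 ± 14.6 TPM), F13a1 (5.40 ± 7.14 TPM), Mrc1 and Cd163 (0.624 ± 0.637 TPM; SD, n = 3), with Ms4a7 and Lyve1 at 0. In SstRed libraries Cd163 came first with 1.12 ± 1.69 TPM (SD, n = 4), then Stab1 with 0.294 TPM, then Mrc1, Lyve1 and F13a1, with Pf4, Cbr2 and Ms4a7 at 0.

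The libraries also differed in which genes made up the sum. Pf4 was 34.0%, 64.4%, 58.3% and 52.4% of the summed TPM of the 8 genes in PkcdRed replicates 1 to 4. Stab1 was 56.5%, 12.8%, 38.2% and 10.2% of it in the same libraries, so replicate 1 was the only PkcdRed library with more Stab1 than Pf4. In SstRed replicates 1 to 3 Cd163 made up 56.8%, 100% and 93.0% of a sum of 0.111 to 3.88 TPM.

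Microglial and pan-macrophage genes were read beside the 8. All 12 microglial markers and all 12 pan-macrophage genes had a log2 fold change above 0 in edgeR, with medians of 4.36 and 4.26, beside -0.08 over all genes tested. Of these, 4 microglial markers (Slc2a5, Fcrls, Tmem119 and Cx3cr1) and 2 pan-macrophage genes (Csf1r and C1qa) were called higher by edgeR, and 11 and 12 by DESeq2. Over all genes, edgeR called 0.282% higher and DESeq2 3.2%. Csf1r, the receptor on which microglia and border macrophages both depend, stood at 1610 ± 747 TPM in PkcdRed and 49.1 ± 42.2 TPM in SstRed libraries (SD, n = 4 each). In bulk libraries such as these, fewer cells of a type and less RNA per cell cannot be told apart. The part of the microglial difference in the levels of the 8 genes was not tested.

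As a share of the microglial sum, the 8 genes came to 0.208%, 5.31%, 0.242% and 0.693% in PkcdRed replicates 1 to 4, against 0.0411%, 0.0106%, 0.240% and 0.140% in SstRed replicates 1 to 4. PkcdRed replicate 2 stood apart. The rest overlapped through SstRed replicate 3 alone, which lay above PkcdRed replicate 1. In SstRed replicate 3 Cd163 was 93.0% of the summed TPM of the 8 genes, from 14.4 estimated counts. Stab1 was 1.53%, 7.90%, 0.868% and 0.761% of the Csf1r level in PkcdRed replicates 1 to 4, against 0.893%, 0%, 1.01% and 7.25% in SstRed replicates 1 to 4. The groups overlapped in this ratio, and it rests on 2 and 4 Stab1 counts in SstRed replicates 3 and 4. Pf4 was 0.920%, 39.8%, 1.32% and 3.91% of Csf1r in PkcdRed replicates 1 to 4 and at 0 in all SstRed libraries. There, 3 reads of Pf4 would be 1.05%, 0.839%, 30.5% and 109% of Csf1r in replicates 1 to 4, so a share like that of 2 PkcdRed libraries was at or near the limit of detection in SstRed replicates 1 and 2 and far under it in replicates 3 and 4.

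**Figure D4:**
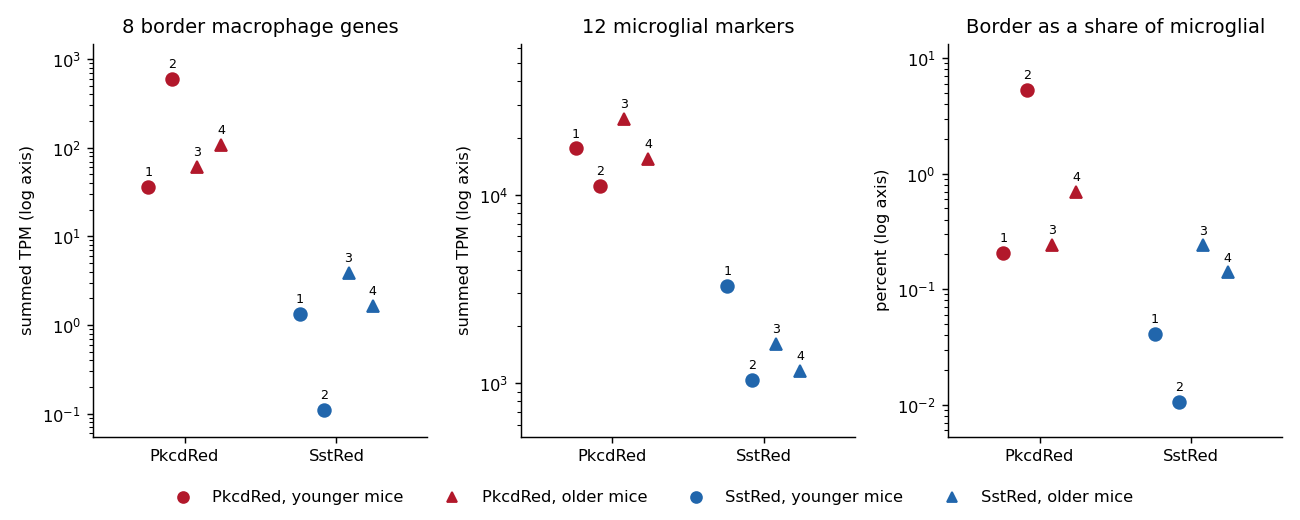
Summed TPM of the 8 border macrophage genes, summed TPM of 12 microglial markers and the first as a percentage of the second (log axes), PkcdRed left and SstRed right, numbered by replicate. Both sums separate the groups, while the percentage overlaps through SstRed replicate 3 alone and PkcdRed replicate 2 stands highest at 5.31%.

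Further genes known from border macrophages were listed. Of 18 such genes 8 passed the edgeR filter and 0 were called, with 2 at an unadjusted p under 0.05, as were 6.67% of all genes. The log2 fold change was above 0 for 7 of these 8 and below 0 for 1, with a median of 2.45 beside -0.08 over all genes tested. DESeq2 called 1 higher (Ms4a6b) and 1 lower (Colec12), where it called 3.2% of all genes higher and 0.812% lower in PkcdRed libraries. Ms4a6b, another relative of Ms4a7 named after its values were seen, read 66.6, 10.2, 17.4 and 45.4 TPM in PkcdRed replicates 1 to 4, against 2.03 TPM in SstRed replicate 1 and 0 TPM in the other SstRed libraries. Ms4a6d, of the same family, stood at 83.3 ± 54.7 TPM in PkcdRed and 5.06 ± 9.17 TPM in SstRed libraries (SD, n = 4 each; log2 fold change 4.44, adjusted p = 0.763 in edgeR). Colec12, a scavenger receptor also made by vessel cells, stood at 53.8 ± 47.0 TPM in PkcdRed and 149 ± 95.5 TPM in SstRed libraries (log2 fold change -1.75, adjusted p = 0.298 in edgeR). Dab2, an adaptor for endocytosis, stood at 41.9 ± 37.4 and Cd38, which makes cyclic ADP-ribose, at 17.2 ± 25.3 TPM in PkcdRed libraries, against 28.2 ± 18.9 and 24.0 ± 45.1 TPM in SstRed libraries. Clec10a, Cd209f and Fcna were at 0 in all 8 libraries. Among genes named after their values were seen, Folr2 was read in SstRed replicate 1 alone (105 counts), Clec12a in PkcdRed replicate 2 alone (152 counts) and Clec4n in PkcdRed replicate 4 alone (27 counts), while Cd36 was read in SstRed replicates 3 and 4 alone (0.330 and 27.1 TPM). Mgl2, also named so, read 0.374, 28.2, 4.09 and 13.2 TPM in PkcdRed replicates 1 to 4. In SstRed replicates 1 to 4 it read 0, 0, 0 and 2.74 TPM (log2 fold change 5.63, adjusted p = 0.792 in edgeR).

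Some border macrophages carry MHC class II, which presents peptides to T cells. Of 7 such genes 4 passed the filter and 0 were called in edgeR, with 1 at an unadjusted p under 0.05 (6.67% of all genes). DESeq2 called H2-DMa higher, where it called 3.2% of all genes higher. H2-DMa, which loads peptides onto class II, stood at 116, 224, 148 and 125 TPM in PkcdRed replicates 1 to 4, against 15.0, 29.8, 0.725 and 0 TPM in SstRed replicates 1 to 4, with no overlap (log2 fold change 5.19, adjusted p = 0.200). H2-DMb1, its partner chain, stood at 64.7 ± 58.6 TPM in PkcdRed and 0.244 ± 0.487 TPM in SstRed libraries (SD, n = 4 each), not tested in that fit. Cd74, the invariant chain, overlapped between the groups with 116 ± 174 TPM in PkcdRed and 57.0 ± 85.1 TPM in SstRed libraries, as did H2-Ab1, a chain of the presenting molecule, with 1.47 ± 2.94 and 10.3 ± 8.34 TPM.

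Relatives and partners of the 8 genes showed no call in edgeR or DESeq2, with 8 of 16 tested. Of those tested 0 had an unadjusted p under 0.05, beside 6.67% of all genes, and the median log2 fold change was 0.15. Stab2, the other stabilin, was at 0 in all 4 PkcdRed libraries and stood at 4.27 TPM in SstRed replicate 2, 0.0790 TPM in SstRed replicate 4 and 0 TPM in the other SstRed libraries (named after its values were seen). F13b, the carrier subunit of factor XIII, was at 0 in all 8 libraries. Tgm2, another transglutaminase, stood at 30.0 ± 8.04 TPM in PkcdRed and 6.31 ± 8.38 TPM in SstRed libraries (SD, n = 4 each; log2 fold change 3.57, adjusted p = 0.757 in edgeR). The carbonyl reductases Cbr1 and Cbr3 stood at 120.0 ± 75.1 and 29.8 ± 23.9 TPM in PkcdRed libraries, against 150.0 ± 13.9 and 43.8 ± 11.2 TPM in SstRed libraries.

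Cells that touch vessels with border macrophages were listed as well. Mural cell markers had a log2 fold change below 0 for 7 of 7 genes (median -2.21) and perivascular fibroblast markers for 5 of 5 tested (median -2.83). In either list edgeR called 0, and it called 0.0% of all genes lower in PkcdRed libraries. An unadjusted p under 0.05 was found for 4 mural and 3 fibroblast markers, beside 6.67% of all genes. DESeq2 called 3 in each list lower (Acta2, Vtn and Notch3 of the mural list, Col1a2, Dcn and Pdgfra of the fibroblast list), where it called 0.812% of all genes lower. The mural and fibroblast sums were 103 to 3745 and 4.63 to 43.1 TPM in PkcdRed libraries, against 2159 to 10331 and 27.2 to 773 TPM in SstRed libraries. In SstRed replicate 2 Pdgfra alone was 185 of the 210 TPM of the fibroblast sum, so that value does not stand for the whole list. Endothelial markers summed to 316 to 5039 TPM in PkcdRed and 146 to 4487 TPM in SstRed libraries, with 0 of 10 called by edgeR and 3 at an unadjusted p under 0.05. DESeq2 called 3 of them (Tek, Cdh5 and Kdr, receptors and a cadherin of endothelium) higher, where it called 3.2% of all genes higher. In PkcdRed replicate 2, where 5 of the 8 genes peaked, the endothelial sum was 2919 TPM while the mural sum was the lowest of all libraries. Monocyte and neutrophil markers had 1 of 10 tested, Csf3r, a cytokine receptor. It was called higher in edgeR (adjusted p = 0.00484), as were 0.282% of all genes. Csf3r stood at 94.7 ± 27.5 TPM in PkcdRed against 2.11 ± 0.985 TPM in SstRed libraries (SD, n = 4 each). Of the 10 markers, 4 were at 0 in all PkcdRed libraries and 2 in all SstRed libraries, so Csf3r does not stand for the list. The summed level of that list overlapped, with 71.9 to 136 TPM in PkcdRed and 1.62 to 212 TPM in SstRed libraries. Among its untested genes, named after their values were seen, Ccr2 reached 67.3 TPM in SstRed replicate 4, and S100a8, S100a9 and Ly6c2 reached 98.6, 52.1 and 43.9 TPM in SstRed replicate 3. Lymphoid markers summed to at most 9.78 TPM in PkcdRed and 4.87 TPM in SstRed libraries, with 0 of 7 passing the filter. The part of these cells in the levels of the 8 genes was not tested.

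**Figure D5:**
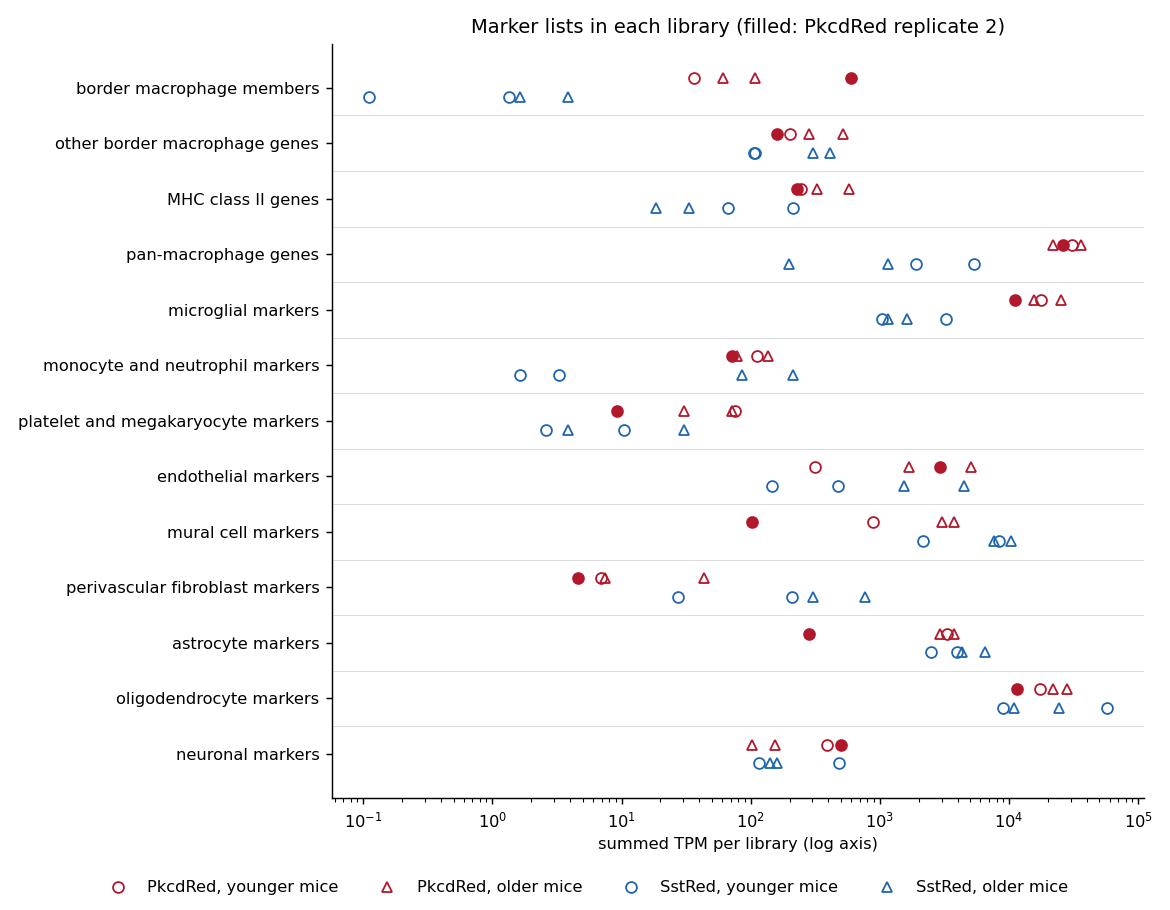
Summed TPM (log axis) of each marker list in each library, PkcdRed above SstRed; the filled point is PkcdRed replicate 2. The border macrophage and microglial sums separate the groups, and PkcdRed replicate 2 is the top library for the first and the lowest of its group for the second.

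The age classes gave no call among the border macrophage genes tested. In edgeR 0 of the 4 tested genes passed, where 0.053% of all genes did. Of the 4 genes 0 had an unadjusted p under 0.05, where 946 of 11328 genes did. DESeq2 called 0 of the 3 to which it gave an adjusted p (Cd163 had none), where it called 5.0% of all genes. Older over younger, edgeR gave log2 fold changes of -1.21 ± 1.11 (SE) for Stab1, -2.22 ± 2.19 for Pf4, 0.39 ± 2.80 for Mrc1 and 0.38 for Cd163, with adjusted p of 0.807 to 0.981. The summed TPM of the 8 genes was 61.0 and 107.5 in older and 36.5 and 593 in younger PkcdRed mice, against 3.88 and 1.63 in older and 1.35 and 0.111 in younger SstRed mice. The test of whether the difference between populations varied with age class called 0 of the 4 genes and 0.0% of all genes in edgeR. Of the 4, 1, Mrc1, had an unadjusted p under 0.05, as had 467 of 11328 genes. DESeq2 called 0 of the 3 with an adjusted p in that test, and 0.693% of all genes. For Pf4, at 0 in all SstRed libraries, that difference cannot be estimated, so its lack of a call was fixed in advance. Mrc1 was at 0 in both younger SstRed libraries and in PkcdRed replicate 4. Its log2 fold change in that edgeR test, -9.90 ± 4.29 (SE), therefore also rests on zeros.

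The genes whose log2(TPM + 1) ran most like that of Stab1 over the 8 libraries were Ptafr (Pearson r = 0.995), Adcy7 (0.995) and Smpd5 (0.988). For Pf4 they were Tnfrsf17 (r = 0.984), Tent5c and Smpd5 (0.981 each). For F13a1 they were Xkr8 (r = 0.990), Adcy4 and Rhobtb1, and for the summed TPM of the 8 genes Smpd5 (r = 0.984), Snx30, Tnfrsf17, Nlrp3 and Arl11. For Mrc1 they were Fbxl17 (r = 0.975), Zzef1 and Rps4x, and for Cbr2 they included Ccdc62 (r = 0.963) and Cds2. Cd163 ran most like Dnmbp (r = 0.927), Mn1 and Pitpnm2. These r are descriptions over 8 points that fall into 2 populations and share library and depth.

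The capitals in the windows mark 2 short motifs searched on both strands. The first is GAGGAA or its reverse complement TTCCTC, the core bound by PU.1, the Ets factor of macrophages. It was in 5 of 9 windows of 7 of the genes, and in 23.3% of all 32851 windows of 250 bases in the table. It began 30 bases before the Stab1 start at base 31168641, 8 before the Pf4 start and 66 before the upstream F13a1 start. It was not in the window of the downstream F13a1 start. The other is TGCTGA or TCAGCA, part of the site bound by MAF factors, which was in 1 of the 9 windows, that of Stab1, and in 16.1% of all windows. The 2 motifs do not overlap in any window shown, and a match is a description of letters, not of a bound site.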

How the data were processed

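RNA was measured in 8 libraries, 4 PkcdRed and 4 SstRed, each from about 1000 sorted td-Tomato cells of 1 mouse and prepared with a SMARTer smRNA-Seq kit, per the labels' protocols. The deposited files list 30404 transcripts with an estimated count and a TPM value each, made by the authors with kallisto, whose column names stand in the file headers. Versions in the submitters' processing notes are 0.43.0 for kallisto and 0.7.12 for BWA, with mm10 as the build; what BWA was used for is not stated there. The deposited TPM values correct for transcript length and sum alike in every library, so they keep no depth, and reads shared by similar transcripts were divided by the authors' tool. The protocol states no strand setting, so antisense reads cannot be told apart.

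RefSeq accessions gave each transcript its gene (30080 by the GRCm38.p6 gene table, 147 by GENCODE names, 177 left as they were), 20692 genes in all. Counts and TPM were added up over the transcripts of a gene, and counts then rounded. edgeR 4.0.16 in R 4.3.3 was run with TMM scaling, its default filter, age class and population as terms, and Benjamini-Hochberg adjustment over all genes tested, threshold 0.05; the SE was taken from the F statistic. Alternatives were RLE and upper quartile scaling, no filter, 10 CPM in 4 libraries, DESeq2 1.42.0, limma 3.58.1 on log2(TPM + 1) and log2(TPM + 0.1), a fit lacking the age term, a replicate block, the younger or the older mice alone, and leaving out every library in turn. The tests were tried on simulated data first. A count of 0 is read as up to 3 counts, and intervals at 95% are exact binomial. The 8 genes and all lists were chosen with earlier results of these data known. Lists are described by the genes called in edgeR (up to 6), otherwise by the 4 of highest mean TPM, and likeness by the 3 or 5 highest Pearson correlations among tested genes, for genes with 10 or more counts in 2 libraries. Some genes under these rules are not reported here.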

Additional observations from a re-analysis of the deposited data

Results flagged for a closer look

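In PkcdRed libraries, replicate 2 stood far from the other 3 for Mrc1 (19.5 TPM), Pf4 (382 TPM), Ms4a7 (24.6 TPM), the summed level of the 8 genes (593 TPM), that sum as a share of the microglial sum (5.31%), and Stab1 and Pf4 as shares of Csf1r (7.90% and 39.8%). In SstRed libraries, replicate 4 stood apart for Stab1 as a share of Csf1r (7.25%, 4 Stab1 counts), and it was the only SstRed library not at 0 for Mrc1 (0.612 TPM, 5 counts), Lyve1 (0.521 TPM, 2 counts) and F13a1 (0.172 TPM, 1 count). A sample was taken as far from the others where its gap to the next exceeded Dixon's 95% limit for 4 samples. In 4 groups of values, those 3 and Ms4a7 in PkcdRed libraries, all but 1 library was at 0, so that any count passes the limit and the flag says nothing of its size. Of the other 15 groups 7 passed, where chance passes about 1 in 20 groups of independent values; many of these share the same library and are not independent.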

How the results depend on the processing

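Stab1 and Pf4 kept their direction in all fits, and their calls depended on the fit. Pf4 missed the threshold in edgeR with the filter and passed with no filter (log2 fold change 11.49), DESeq2 (9.79), limma on log2(TPM + 1) (5.84) and on log2(TPM + 0.1) (9.12); Stab1 passed with no filter (6.54), DESeq2 (6.58) and limma on log2(TPM + 1) (4.37), and without SstRed replicate 2 (5.99). Without PkcdRed replicate 2 the call of Pf4 with no filter was lost (8.28). Among fits with no filter F13a1 passed with DESeq2 alone (8.21). With a library left out Stab1 ran between 5.89 and 7.66, and with the filter it passed in none of these but that without SstRed replicate 2. Cd163 then ran between -0.14 (without SstRed replicate 4) and 2.20, and with no filter between -1.34 (without PkcdRed replicate 2) and 2.28, also turning without SstRed replicate 2 (-0.46) and replicate 4 (-0.15). By age class, Mrc1 turned with limma (-0.73 and -0.87) and, with a library left out, ran between -3.75 (without SstRed replicate 4) and 3.63, and Cd163 between -1.75 (without SstRed replicate 3) and 0.83. The interaction ran between -2.99 and 6.16 (without SstRed replicate 3) for Cd163 and between -8.02 and 0.04 (without PkcdRed replicate 2) for Stab1. The causes were not tested.

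Genes called higher in PkcdRed libraries numbered 32 in edgeR, 218 with no filter, 362 with DESeq2, 137 and 66 with limma (pseudocounts 1 and 0.1), 0 in either age class alone and 10 to 52 with a library left out; those lower numbered 0, then 51, 92, 10 and 2, and 1 without PkcdRed replicate 1. Genes higher in older mice numbered 3, against 116 with no filter, 250 with DESeq2, 20 and 7 with limma, 1 with RLE scaling or 10 CPM and 0 with most libraries left out; those lower numbered 3, against 133, 305, 33, 5, 1 and 0. Replicate numbers do not pair the mice, since the correlation of deviations was 0.0804 to 0.211 and under 0.1 for number 3, and 1 of 4 numbers correlated best with itself; the replicate block gave 24 genes higher and a log2 fold change of 6.55 for Stab1, 10.78 for Pf4, 6.90 for Mrc1 and 0.86 for Cd163, and changed no call of these 4 genes. Depth limits the older libraries, where 3 counts are 1.19 to 3.11 CPM.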
